A study of Mus musculus with 2 samples.

Results

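The gelsolin family is a set of related proteins that cut, cap or bundle actin filaments, and its 7 genes examined here were Scin, Gsn, Capg, Vil1, Flii, Svil and Avil. They were followed through the probe sets (groups of short probes for a transcript) that the platform annotation assigns to exactly 1 of these symbols, 15 probe sets in all, out of 12393 named genes on the array. The genes were chosen by kinship, but the family itself was selected on the log2 ratios of these same arrays, among which Scin had one of the lowest, so all of its values are a description. RNA came from implantation sites, the stretches of pregnant uterus that hold an embryo, on day 8 of pregnancy. The Cbs null females, homozygous for loss of cystathionine beta-synthase, gave 1 array, and control females gave 1 array. All were 4 months old, with a genetic background of C57Bl/6J crossed to OLA129. The labels name uteri by genotype and give neither the deleted part of Cbs, the genotype of the conceptus, nor whether animals were pooled.

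Proteins of this family are built from repeats of a gelsolin-like domain. Calcium switches the best studied members on and the membrane lipid phosphatidylinositol bisphosphate switches them off. A severing member breaks a filament and stays on its fast-growing end as a cap, so it shortens filaments and loosens the cell cortex. Around implantation the uterine stroma turns into decidua, the epithelium opens, and leukocytes and trophoblast move through the tissue, all of which involve remodelling of actin.

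The question was how implantation sites of Cbs null females differ from control sites in these transcripts. Each genotype had a single array, so differences have no replicate check or test and describe these 2 arrays. Signals are linear intensity, ratios are log2 of Cbs null over control, and for ratios any signal below 14.3 (the floor, which is percentile 25 over both arrays) was set to 14.3. A probe set was kept where its mean signal reached 70.5, the median of all probe sets. Signals of different probe sets cannot be set against each other, because probes bind with different strength, so the family members are not ranked by level. The spread available within the arrays was that between probe sets of a gene. Over 2284 genes the brightest and next brightest kept probe sets differed with an SD of 0.30, which corresponds to 0.21 for a single probe set. Both values pool all kept signal levels, and none was computed for bright or dim genes apart.

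The arrays as a whole were alike. For Gapdh the signal at the 3' end was 1.15 times that at the 5' end on the Cbs null array and 1.07 times on the control array, and for beta-actin 1.61 times on the Cbs null array and 1.54 times on the control array. Cbs had 2 probe sets, at 23.8 and 22.3 on the Cbs null array, against 30.3 and 29.9 on the control array, all dim, so they do not check the genotype. Of the decidual markers 9 of 9 were kept, and of the smooth muscle markers 9 of 10, beside 7079 of all 12393 named genes. Endothelial markers passed as fully, at 8 of 8, so these counts do not check the tissue label. Past the 2-fold limit lay 0.622% of the 7079 kept genes in the direction of higher and 0.283% in the direction of lower signal on the Cbs null array, and the median ratio was 0.02.

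Scin, scinderin (also called adseverin), had the largest difference among the kept probe sets of the family. It is a calcium-dependent severing protein first studied in secretory cells, where it opens the actin layer under the membrane before granules are released. Its single probe set, 1450276_a_at, read 83.8 on the Cbs null array, against 189.4 on the control array. Both values lay above the limit of 70.5, so its passing the filter did not hinge on 1 array. The signal was 2.26-fold lower on the Cbs null array, a log2 ratio of -1.18. Scin stood at place 8 from the lowest ratio among the 7079 kept genes, and at place 37 with dimmer genes let in by a filter at the 25th percentile. In the dimmest tertile of signal, to which it belongs, 2 of 2360 genes had a lower ratio, and 95% of that tertile lay between -0.53 and 0.66. No other probe set of Scin was on the array, so the difference has no second measure. Across every scaling, floor and pseudocount tried, its ratio lay between -1.23 and -1.05.

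With 2 arrays the ratio is the whole pattern of a gene, so the genes set beside Scin here are its neighbours in the order of ratios. Bmp2, a growth factor of the decidual response, stood just below it at -1.21, and the transcript 2510039O18Rik below that at -1.27. Gzma, a granzyme of natural killer cells, stood just above it at -1.16, followed by Dmkn, a secreted protein of epithelium, at -1.15. Gzma read 557.4 on the Cbs null array and 1247.7 on the control array, and Bmp2 read 258.0 on the Cbs null array and 597.0 on the control array. The ratios of these neighbours lay closer to that of Scin than 0.21, the spread of a single probe set. Their order is thus not resolved, and a shared pattern was not tested.

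**Figure D1:**
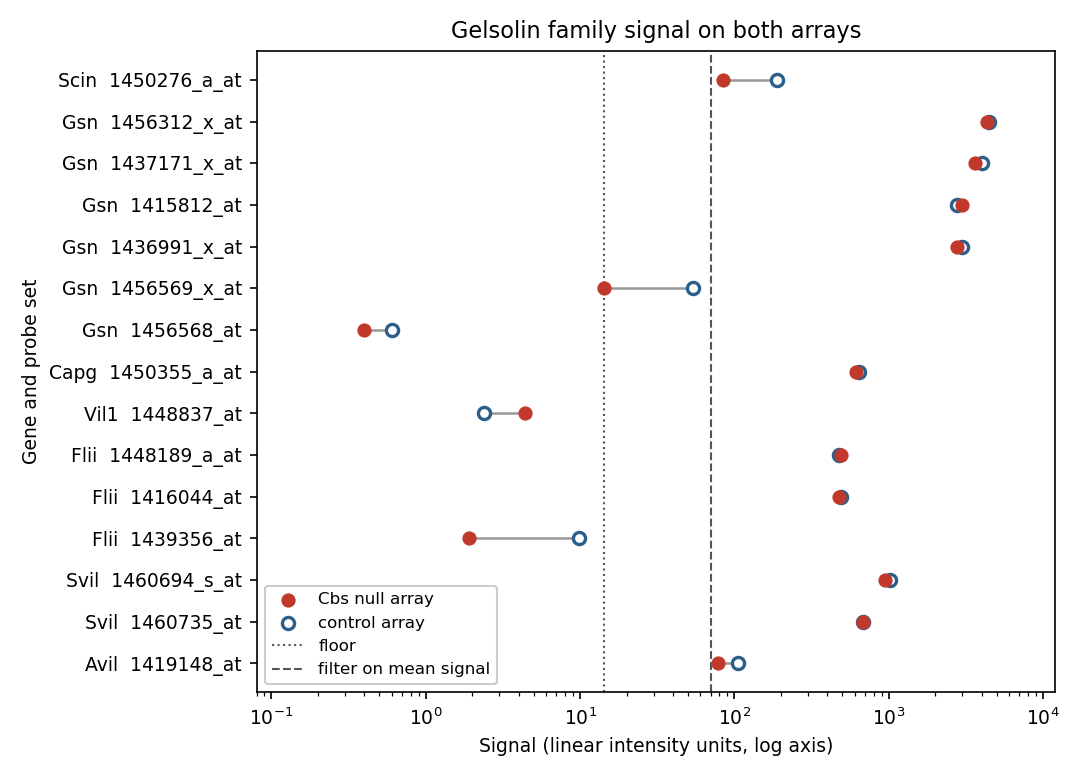
Signal of each of the 15 probe sets of the family (rows, by gene) on the Cbs null array (filled points) and the control array (open points), on a log axis of linear intensity, with the floor at 14.3 and the limit on mean signal at 70.5 as vertical lines. Scin, at 83.8 and 189.4, is the only probe set right of the limit whose points lie clearly apart. Vil1 and 2 further probe sets lie left of the floor on both arrays.

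Gsn, gelsolin, is the protein that gave the family its name. It occurs as a form inside cells and as a secreted plasma form, both made from the same gene through different starts, and it severs filaments strongly. Of its 6 probe sets 4 were kept, and their signals were close on the arrays. Probe set 1456312_x_at read 4324.3 on the Cbs null array and 4451.7 on the control array. Probe set 1437171_x_at read 3607.8 on the Cbs null array and 3994.2 on the control array, and 1436991_x_at read 2774.4 on the Cbs null array and 2976.3 on the control array. Only 1415812_at was higher on the Cbs null array, at 2978.1, against 2789.0 on the control array. These ratios ran from -0.15 to 0.09, with a mean of -0.05 ± 0.10 (SD over 4 probe sets of 1 gene, which are not replicates of a genotype). Directions were thus mixed within Gsn. The whole spread of its ratios was within the SD of 0.30 between probe sets of a gene, a value not specific to bright genes such as Gsn.

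The remaining pair of Gsn probe sets share 1 source accession and were dim. Probe set 1456569_x_at read 14.3 on the Cbs null array and 54.1 on the control array, a ratio of -1.92 that was -0.45 with the floor at the 40th percentile. Probe set 1456568_at read 0.4 on the Cbs null array and 0.6 on the control array, both under the floor. The gap at 1456569_x_at was not seen in any of the 4 kept probe sets. Which Gsn transcripts each probe set reads is not given in the sources used here, so the cellular and plasma forms cannot be told apart.

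Capg caps filament ends without severing them and is abundant in macrophages, where it was first described. It read 608.9 on the Cbs null array and 638.2 on the control array in its single probe set, 1450355_a_at, with a log2 ratio of -0.07. Macrophage markers differed from it in direction. Of 9 kept macrophage markers 8 had a ratio above 0, with a median of 0.36, and the 10 on the array summed to 5779.6 on the Cbs null array and 4430.1 on the control array. None of these 10 markers was under the floor on both arrays. The part of macrophages in the Capg value was not tested.

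Flii joins gelsolin repeats to leucine-rich repeats and works in both the cytoskeleton and transcription. Its kept probe sets gave ratios on either side of 0. Probe set 1448189_a_at read 491.4 on the Cbs null array and 478.5 on the control array, a ratio of 0.04, while 1416044_at read 474.6 on the Cbs null array and 490.5 on the control array, a ratio of -0.05. Its other probe set, 1439356_at, read 1.9 on the Cbs null array and 9.9 on the control array, and both values were under the floor.

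Svil, supervillin, ties actin and myosin II to the plasma membrane and has a long muscle form. It read 951.2 on the Cbs null array and 1014.0 on the control array in 1460694_s_at, with a ratio of -0.09. In 1460735_at it read 679.2 on the Cbs null array and 680.7 on the control array, with a ratio of -0.00. Both probe sets come from 1 source accession. Markers of smooth muscle, which forms the outer uterine wall, had a median ratio of -0.04 over 9 kept genes. The 10 on the array summed to 29041.4 on the Cbs null array and 29819.6 on the control array.

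Vil1 and Avil are the members best known from particular cell types. Vil1, villin, bundles the filaments of microvilli in gut and kidney epithelium and in the mouse is also made by visceral endoderm of the conceptus. It read 4.4 on the Cbs null array and 2.4 on the control array in its single probe set, 1448837_at. Both values were under the floor, so no ratio is given and the gene was not detectable with this probe set. Of the 10 yolk sac endoderm markers on the array 4 were kept. Afp, the fetal plasma protein, read 384.6 on the Cbs null array and 24.7 on the control array, and Ttr, the thyroxine carrier, read 113.6 on the Cbs null array and 33.0 on the control array. Neither reached the filter limit on the control array alone, so their high Cbs null values decided that they were kept. The other kept markers, Rbp4 and Sox17, had ratios of 0.00 and 0.05, and another kept probe set of Sox17 was at 0.33. Among dim markers that were not kept, Apoa1 was at 1.07 and Amn at -0.15. Cubn was at 0.66, with its control value under the floor. Espn, which bundles microvillar filaments beside villin, read 4.2 on the Cbs null array and 1.3 on the control array, also under the floor.

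Avil, advillin, is close to villin in build and is known from sensory neurons and tuft cells. Its single probe set, 1419148_at, read 78.0 on the Cbs null array and 104.8 on the control array, 1.34-fold lower on the Cbs null array and a log2 ratio of -0.43. That was the second lowest ratio of the family, but it lay inside the range of -0.53 to 0.66 that held 95% of genes in its tertile of signal, and 3.24% of all kept genes had a lower ratio. Of 5 tuft cell and sensory neuron markers on the array 1 was kept, Dclk1, at 0.16. The tuft cell channel Trpm5 read 10.3 on the Cbs null array and 14.7 on the control array, at or near the floor, and the neuronal regulator Isl1 read 2.9 on the Cbs null array and 1.3 on the control array. Pou2f3, a regulator of tuft cells, read 15 on the Cbs null array and 21.6 on the control array, a ratio of -0.53 just above the floor. Prph, a filament protein of peripheral neurons, read 1.4 on the Cbs null array and 17.3 on the control array. The part of such cells in the Avil value was not tested.

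**Figure D2:**
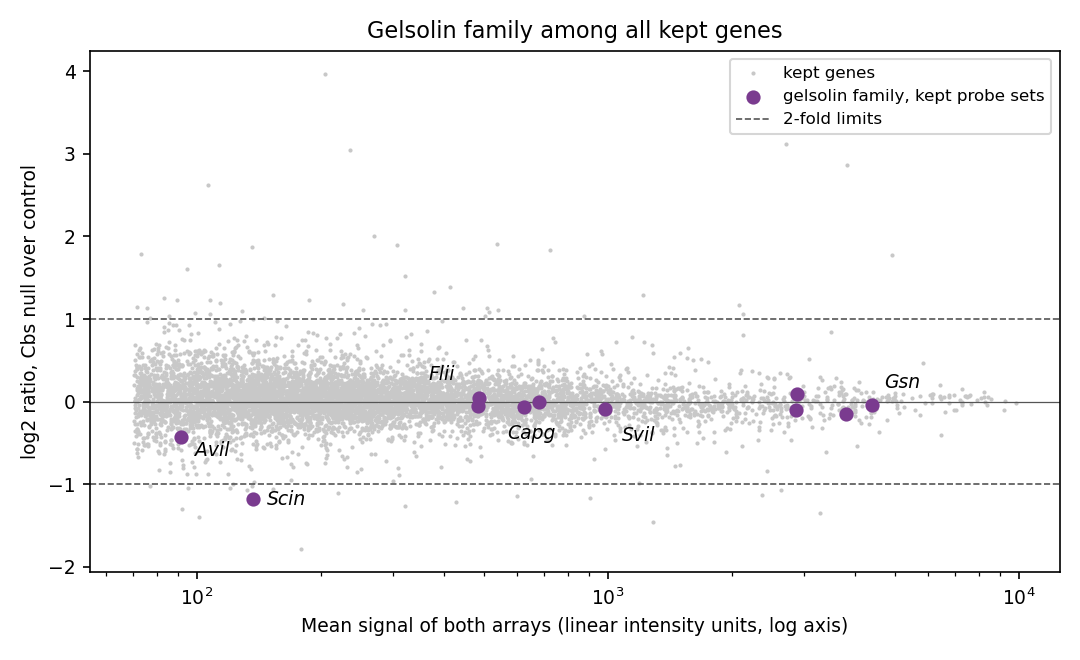
Log2 ratio of Cbs null over control (vertical axis) against mean signal of both arrays (horizontal log axis) for the 7079 kept genes (small points) and the 11 kept probe sets of the gelsolin family (large points), with 2-fold limits as dashed lines. Scin at -1.18 lies beyond the lower limit, Avil at -0.43 lies within the cloud, and Gsn, Capg, Flii and Svil lie between -0.15 and 0.09.

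As a set, 6 of the 7 genes were kept, and Vil1 was the one that was not. Each gene is represented in such counts by its brightest probe set. A single family member, Scin, was at least 2-fold lower and none was at least 2-fold higher, beside the 0.283% and 0.622% of all kept genes given above. At 1.5-fold the same gene was lower and none was higher, against 1.33% lower and 2.46% higher among all kept genes. The rule that chose the family used this contrast, so nothing is read from these counts. The median ratio of the 6 genes was -0.08, with 5 below 0 and 1 above, while 44.9% of all kept genes were below 0. Flii, the one above 0, was at -0.02 with each array centred on its median, so that direction depended on the scaling. Gsn was counted below 0 through 1456312_x_at at -0.04, while its probe set 1415812_at was at 0.09, so its direction depended on the probe set. With probe sets ending in _s_at or _x_at left out, the family median was -0.0355. Between -0.2 and 0.2 lay 4 of the 6 genes and 66.1% of all kept genes.

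Genes that act on actin beside the family were taken from 6 lists of 93 genes, of which 77 were on the array and 66 were kept. None of the 66 was at least 2-fold apart, beside 0.283% lower and 0.622% higher among all kept genes. At 1.5-fold 2 were lower, Tesk2 and Actc1, and none was higher, beside 1.33% lower and 2.46% higher among all kept genes, and both of these genes passed the filter through their control value alone. Ratios of the 66 genes ran from -0.67 to 0.55, with a median of -0.04, and 40 were below 0 and 26 above.

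The other severing system, cofilin with its helpers, had a median of -0.07 over 15 kept genes, with 4 above 0 and 11 below. Dstn, destrin, a relative of cofilin, was at 0.26 and Tesk1, a kinase that switches cofilin off, at 0.39. The related kinase Tesk2 was at -0.59 and read 58.7 on the Cbs null array and 88.2 on the control array. Cap2, a cyclase-associated protein, was at 0.11 in its brightest probe set and at 0.79 in the other. Genes that cap filament ends had a median of 0.01 over 10 kept genes, 5 on either side of 0. Tmod1, which caps the slow-growing end, had the highest ratio at 0.55, and Eps8, which caps the fast-growing end, the lowest at -0.36, although the 3 kept probe sets of Eps8 ran from -0.36 to 0.02. Tmod3 was at -0.21 in its brightest probe set and at -1.04 in another.

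Actins and the proteins that hold actin monomers had a median of -0.06 over 10 kept genes, 4 above 0 and 6 below. Actb, beta-actin, was at 0.05 in its brightest probe set and at -0.29 in the other kept one. Tmsb10, a thymosin that binds monomers, was at 0.07 in its brightest, and its 3 kept probe sets ran from -0.24 to 0.10. The striated muscle actins Acta1 and Actc1 were at -0.40 and -0.67. Actc1 read 55.4 on the Cbs null array and 88.1 on the control array. Near-identical actin genes may share probes, so these values are uncertain. Nucleators, which start filaments, had a median of -0.05 over 12 kept genes, 4 above 0 and 8 below, from the formin Diaph1 at -0.30 to Wasf1, which activates the Arp2/3 complex, at 0.31. Those values are of the brightest probe sets, and Actr3, a subunit of that complex, was at -0.16 in its brightest and at -0.96 in its lowest. Crosslinkers and membrane linkers had a median of 0.01 over 16 kept genes, 9 above 0 and 7 below, from the bundling protein Pls3 at -0.52 to the filamin Flna at 0.14, while Vcl, vinculin, was at 0.01 in its brightest probe set and at 0.52 in the other.

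Of the known partners, Lrrfip1, which binds Flii, was at -0.35, while its other kept probe set was at 0.03. Lrrfip2, which also binds Flii, was at -0.10, and Vill, a villin-like relative of the family, was at -0.01, with 129.5 on the Cbs null array and 130.2 on the control array.

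**Figure D3:**
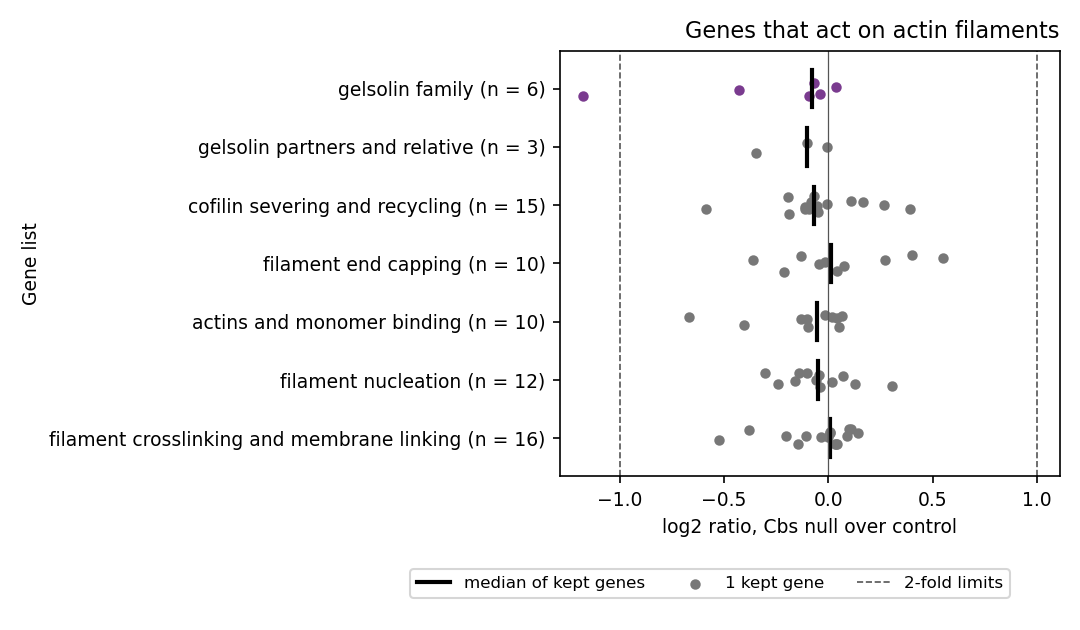
Log2 ratio of Cbs null over control for each kept gene (points, 1 per gene at its brightest probe set, spread vertically at random for legibility) of the gelsolin family and 6 lists of genes that act on actin, with the median of each list as a thick line and 2-fold limits dashed. Scin at -1.18 is the only point beyond a limit, and the medians of all 7 rows lie between -0.10 and 0.01.

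Markers of several cell types differed between the same arrays, and their values stand here beside that of Scin. Fewer cells of a type and less RNA per cell cannot be told apart in such bulk tissue. Of 7 kept markers of uterine natural killer cells 7 were below 0, with a median of -0.96, and the 9 on the array summed to 4644.8 on the Cbs null array and 10472.0 on the control array. Such sums are weighted by bright probe sets, so the part of a gene in a gap depends on its brightness as well as its ratio. The granzyme Gzmd had the largest part in that gap, at 1857.0 on the Cbs null array and 4720.7 on the control array. By ratio Gzmc was lower, at -1.46 against -1.35 for Gzmd. None of these 9 was under the floor on both arrays. Il2rb, a receptor chain at -0.85 in its brightest probe set, passed the filter there through its control value. Its other kept probe set was at -0.32. Ncr1, an activating receptor that was not kept, went the other way, at 67.5 on the Cbs null array and 56.4 on the control array, a ratio of 0.26. Decidual markers had a median of 0.02 over 9 kept genes, 5 above 0 and 4 below. Bmp2 and Tdo2, which degrades tryptophan, were at -1.21 and -0.84, while Prl8a2 and Cryab were at 0.515 and 0.26. The 9 decidual genes summed to 9027.9 on the Cbs null array and 9619.8 on the control array, and none was under the floor on both.

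Endothelial markers had 6 of 8 below 0 and a median of -0.23. Their sums were 2150.1 on the Cbs null array and 2431.4 on the control array. Megakaryocyte markers had 1 of 6 kept, the platelet chemokine Pf4 at 0.27. Ppbp, Gp5 and Gp9, which define platelets, were under the floor on both arrays. The other markers that were not kept went in opposite directions. Itga2b read 72 on the Cbs null array and 44 on the control array, a ratio of 0.71. Treml1 read 7.2 on the Cbs null array, under the floor, and 31 on the control array, a ratio of -1.12. Epithelial markers had 7 of 8 kept genes above 0 and a median of 0.47, and the 11 on the array summed to 17049.5 on the Cbs null array and 5165.4 on the control array. Most of that gap came from the gland proteinases Prss28, at 6692.4 on the Cbs null array and 918.9 on the control array, and Prss29, at 7620.0 on the Cbs null array and 2220.1 on the control array, while Cdh1, E-cadherin, was at -0.02. Adipocyte markers had 4 of 4 kept genes above 0 and a median of 0.67. The 5 on the array summed to 5028.7 on the Cbs null array and 3221.3 on the control array. Of 5 trophoblast markers only Tpbpa, of spongiotrophoblast, was kept, at 1.39, while Cdx2 and Elf5 were under the floor on both arrays. Ascl2 and Hand1, dim but above the floor, did not share that rise. Ascl2 read 24.4 on both arrays, and Hand1 read 19.6 on the Cbs null array and 21.5 on the control array. The part of any of these cell types in the Scin value was not tested.

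**Figure D4:**
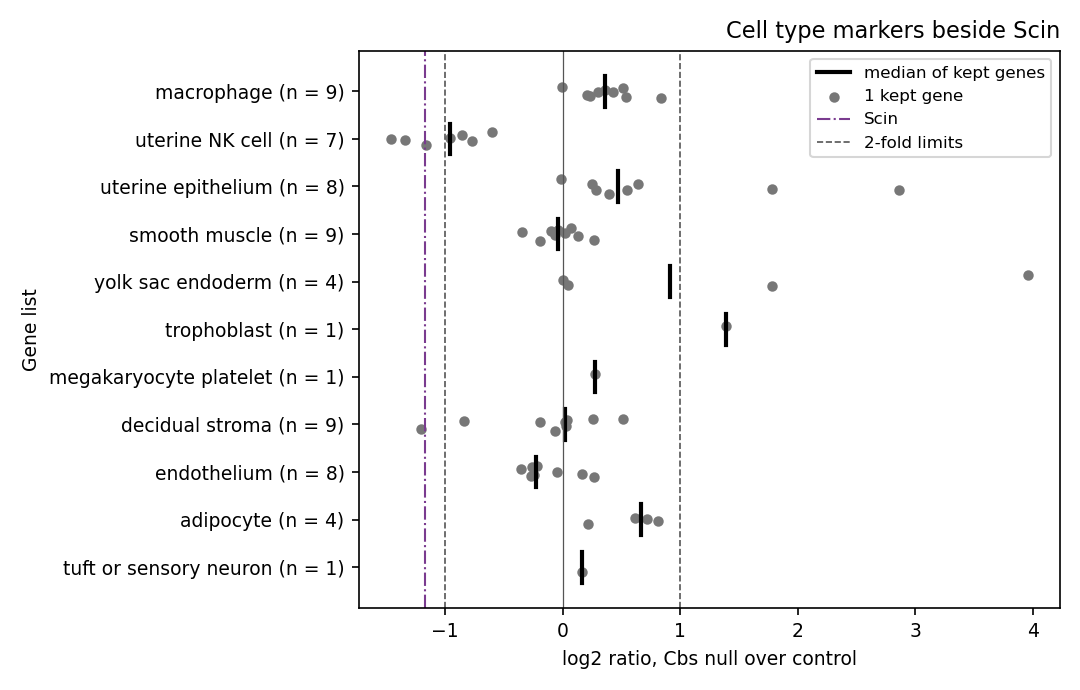
Log2 ratio of Cbs null over control for each kept marker gene (points, spread vertically at random for legibility) of 11 cell types, with the median of each list as a thick line, 2-fold limits dashed and the ratio of Scin, -1.18, as a dash-dotted line. The 7 natural killer cell markers lie on both sides of the Scin line, and the epithelial, adipocyte and macrophage medians lie to the right of 0.

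The start regions of 6 members, as 8 windows from 250 bases before to 50 after a RefSeq transcription start on assembly GRCm38.p6, were compared as a description, since the arrays measured nothing at promoters. No window of Svil was used, so statements on the 8 windows do not cover that member. The windows of Scin and Avil are printed because these genes had the lowest ratios of the family. Both strands were searched for the TATA box (TATAAA), the CCAAT box, the GC box (GGGCGG), the E-box (CACGTG), the AP-1 element (TGANTCA), the steroid receptor half-site (TGTTCT) and the CArG motif, the binding sequence of serum response factor. None of these motifs overlapped in the printed windows, and every match is in capitals. In Scin these capitals are GGGCGG read on the other strand, and in Avil they are CCAAT read on the other strand.
Scin, chr12:40134179-40134478, minus strand: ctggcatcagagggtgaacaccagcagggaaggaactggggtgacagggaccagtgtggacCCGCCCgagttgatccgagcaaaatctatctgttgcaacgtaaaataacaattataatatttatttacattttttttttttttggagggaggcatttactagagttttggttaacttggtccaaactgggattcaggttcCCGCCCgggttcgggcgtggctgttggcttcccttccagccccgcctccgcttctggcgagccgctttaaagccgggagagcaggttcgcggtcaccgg
Avil, chr10:127000459-127000758, plus strand: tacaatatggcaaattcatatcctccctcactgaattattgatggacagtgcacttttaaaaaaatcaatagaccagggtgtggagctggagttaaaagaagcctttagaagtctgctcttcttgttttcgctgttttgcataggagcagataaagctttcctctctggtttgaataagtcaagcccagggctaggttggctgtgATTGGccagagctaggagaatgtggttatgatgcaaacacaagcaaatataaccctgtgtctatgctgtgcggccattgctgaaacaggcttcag

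The windows of Scin and Avil differed in base composition. Scin held 16 CpG dinucleotides in 300 bases, more than 67.0% of 32851 mouse windows, and 52.0% G or C. Avil held 2 CpG dinucleotides, more than 14.1% of windows, and 43.0% G or C. The median window held 7 CpG dinucleotides and 52.7% G or C. GGGCGG occurred 2 times in Scin and not in Avil, and it occurred in 35.7% of all windows. Of the members at steady signal, Flii held 26 CpG dinucleotides and 2 GGGCGG matches, and Capg held 7 CpG dinucleotides and none. The 3 windows of Gsn held 20, 2 and 16 CpG dinucleotides and 3, 1 and 2 GGGCGG matches. TATAAA, found in 13.6% of all windows, CACGTG, found in 7.15%, and TGANTCA, found in 7.81%, were in none of the 8. TGTTCT, part of the element bound by progesterone and glucocorticoid receptors, was in Capg alone and in 19.0% of all windows. CCAAT was in Avil and in 2 of the 3 Gsn windows, and in 37.4% of all windows. The CArG motif was in Vil1 alone and in 1.63% of all windows. Whether any of these motifs bears on the signals was not tested.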

How the data were processed

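Total RNA was extracted from dissected implantation sites with Tri reagent followed by a column, and 2 microg per array were labelled and hybridised, per the labels' protocols. The authors deposited 1 linear intensity per probe set and array. GCOS 1.4 is the software named, per the submitters' processing notes. The algorithm, detection calls and genome build were not given in the sources. Both arrays had a 2% trimmed mean of 200.08, so no scaling was added. Of 22690 probe sets 64 controls were left out, and the 20380 with exactly 1 symbol were used for genes, 20351 of them matched by identifier to RefSeq GRCm38.p6. The other 691 had several symbols and 1555 had none. No p-value was computed. The number of arrays limits the precision.

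Members and lists were chosen with earlier results of these data known. Named genes are all members, the extremes of each actin list and any kept gene of it at least 1.5-fold apart, and the neighbours of Scin. Others are markers or later picks. Alternatives were quantile normalization, median centring, loess (span 0.3), other floors, a pseudocount, other filters and other probe set rules. Promoters are from RefSeq. Scripts (Python 3.11.15, statsmodels 0.14.6) were tested on simulated data.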

Additional observations from a re-analysis of the deposited data

How the results depend on the processing

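In 66 of 66 comparisons, the ratios of the 11 kept family probe sets moved by less than 0.21, the spread of a single probe set. The settings were quantile normalization, median centring, loess, other floors and a pseudocount. The other floors could not change these ratios, since no signal of the 11 lay under them. Median centring moved all 11 by the same amount, so these settings are a weak check. The family median ranged from -0.13 to -0.04 over all 11 alternatives. Values at the floor moved more. With the floor at the 10th percentile, Flii 1439356_at was at -1.72 and Vil1 at 0.55. With the floor at the 40th percentile, Gsn 1456569_x_at was at -0.45, and with a pseudocount it was at -1.26 and Flii 1439356_at at -0.58. The filter set the counts over all genes. At the 25th percentile 149 genes were at least 2-fold higher and 79 lower, and 498 and 357 at 1.5-fold. At the 75th these were 23 and 8, and 61 and 36, and Scin no longer passed. The family partner list was then Lrrfip1 alone, at -0.35. With no filter the counts were 149 and 79, and 506 and 365. With a pseudocount 13 genes were at least 2-fold lower. Median centring gave 133 genes at least 1.5-fold higher and 123 lower, against 174 and 94. Scin stood at place 7 to 12 from the lowest with the filter unchanged, and at place 37 with the filter at the 25th percentile or none. No paired analysis was possible because each genotype had 1 array. Dim signal limits Vil1, Avil and Scin, and no probe set has a replicate.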
